A study of Mus musculus with 7 samples.

Results

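Scavenger receptors are surface proteins of phagocytes that bind modified lipoproteins, microbial surfaces, dying cells and particles, and mannose receptors are lectins that bind sugars on microbes, allergens and glycoproteins. The set described here holds 9 genes: Mrc1, Cd163, Msr1, Marco, Cd36, Scarb1, Stab1, Olr1 and Cd68. Each was measured by its only probeset with a single gene symbol, so 9 of 9 listed genes were found among 19938 genes tested. The samples were cDC2s, the CD11b+ subset of conventional dendritic cells, taken from the lungs of female C57Bl/6 mice 12 hours after treatment. They were sorted for CD11c, MHC-II and CD11b and against Ly6C and CD64, and each array held the pooled cells of 10 mice. The groups were Irf3-deficient mice given 100 µg of house dust mite extract (HDM, 3 arrays), wild type mice given the same 100 µg of HDM (2 arrays), and wild type mice given a saline solution, PBS (2 arrays). Irf3-deficient mice given PBS were not analysed here, and age is not given in the sources used here. Levels are log2 expression values from Affymetrix Mouse Gene 1.0 ST arrays, on which 1 unit is a doubling. The arrays measure RNA, and uptake of inhaled material was not measured.

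In the lung these receptors are best known from alveolar and interstitial macrophages, which clear particles and surfactant, and several also serve dendritic cells in antigen capture. They have no common fold: class A receptors carry collagen-like stalks, class B receptors cross the membrane at both ends, and the mannose receptor and the class E receptor LOX-1 carry C-type lectin-like domains. Irf3 is a transcription factor activated downstream of innate sensors, including Toll-like receptor 4, and it switches on type I interferon genes.

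The 7 arrays gave medians between 7.603 and 7.686 over all probesets. Across genes, correlations lay between 0.995 and 0.997 within groups and between 0.973 and 0.990 from group to group. Irf3 had log2 levels of 8.26, 8.13 and 8.30 in HDM-treated Irf3-deficient arrays, against 9.59 and 9.57 in HDM-treated wild type and 9.48 and 9.56 in PBS-treated wild type, which follows the labels (-1.35 ± 0.10 between treated genotypes, SE). Whether its probes lie in the deleted part is not given in the sources used here. Among the genes of the labelled cell type, Itgax (CD11c) averaged 12.96 in Irf3-deficient HDM, 12.65 in wild type HDM and 12.89 in wild type PBS arrays, and the class II gene H2-Ab1 14.21 in Irf3-deficient HDM, 14.23 in wild type HDM and 14.27 in wild type PBS arrays. Itgam (CD11b) was less even, at 11.73 in Irf3-deficient HDM, 11.01 in wild type HDM and 12.07 in wild type PBS arrays. By limma it differed by -1.06 for wild type HDM minus PBS (adjusted p = 1.94e-05) and by 0.72 between treated genotypes (adjusted p = 0.000225). The sort left out cells with CD64, whose gene Fcgr1 averaged 9.13 in Irf3-deficient HDM, 10.80 in wild type HDM and 9.01 in wild type PBS arrays. Without a detection call, a level near or below the lower quartile of all genes, 6.70, cannot be told from background. All 9 receptor genes lay above it on every array, which does not by itself show that they were detected. Among the lower levels were Cd163 at 7.52 and 7.25 in wild type HDM arrays, and Marco at 7.51 to 8.09 on all arrays.

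In wild type cDC2s, most of these receptors were lower after HDM. Cd163, the receptor for haemoglobin bound to haptoglobin, fell 3.68-fold (95% CI 3.06 to 4.42), and Mrc1, the mannose receptor, fell 3.37-fold (2.84 to 4.01). The class H receptor gene Stab1 fell 2.72-fold (2.02 to 3.67), and Cd36, Msr1, Scarb1 and Cd68 fell between 1.33-fold and 1.70-fold. Olr1 and Marco did not pass. In the limma fit, 7 of 9 genes (77.8%) were lower and 0 were higher after Benjamini-Hochberg adjustment over all genes, and 7 and 0 at an unadjusted p under 0.05, which 28% of all genes reached. Over all genes 17.6% passed in this comparison, 9.23% lower and 8.35% higher. The median log2 difference was -0.72 for the 9 genes and 0.03 for all genes. HDM-treated and PBS-treated wild type arrays did not overlap for 7 of the 9 genes, against 52.6% of all genes. Of 17 monocyte and interstitial macrophage markers 14 also fell in these arrays and 2 rose. In bulk samples fewer cells of a type and less RNA per cell cannot be told apart.

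Irf3-deficient cDC2s given HDM had higher levels of most of these receptors than wild type cDC2s given HDM. Olr1, the gene of LOX-1, was 2.78-fold higher (95% CI 2.20 to 3.49), Stab1 2.76-fold (2.10 to 3.62), Msr1 2.64-fold (2.01 to 3.46), Mrc1 2.40-fold (2.05 to 2.81), Cd36 2.23-fold (1.90 to 2.62) and Cd163 1.98-fold (1.67 to 2.34). Scarb1 was 1.3-fold higher (1.10 to 1.54). Cd68 and Marco did not pass, at log2 differences of 0.26 and 0.24. By limma 7 of 9 genes were higher and 0 lower, with 8 and 0 at an unadjusted p under 0.05, which 28.9% of all genes reached. Over all genes 19.7% passed, 10.7% higher and 9% lower. The median log2 difference was 1.16 for the 9 genes and 0.00 for all genes. Arrays of the treated genotypes did not overlap for 9 of 9 genes, against 43.7% of all genes, and for Marco the gap was below 0.01. In this comparison 11 of the 17 monocyte and interstitial macrophage markers were also higher, and 3 were lower (Fcgr1, Plac8 and Apoe).

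Set against PBS-treated wild type, the HDM-treated Irf3-deficient cells differed from gene to gene. Olr1, Msr1 and Cd36 were higher, Cd163 and Mrc1 were lower, and Stab1, Scarb1, Cd68 and Marco did not pass. In all, 5 of 9 genes passed, against 10.8% of all genes (5.89% higher, 4.91% lower), and 6 of 9 reached an unadjusted p under 0.05, against 22.9%. The arrays did not overlap for 7 of 9 genes, against 39.1% of all genes. Genotype and treatment differ together here, and each pair of the 3 comparisons shares the arrays of 1 group. Without PBS replicate 1, or without PBS replicate 2, the count was 2, made up of Cd163 and Olr1. It was 3 without Irf3-deficient replicate 2 and 3 without Irf3-deficient replicate 3, where Mrc1 also passed, and in none of these 4 fits did Msr1 or Cd36 pass.

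**Figure D1:**
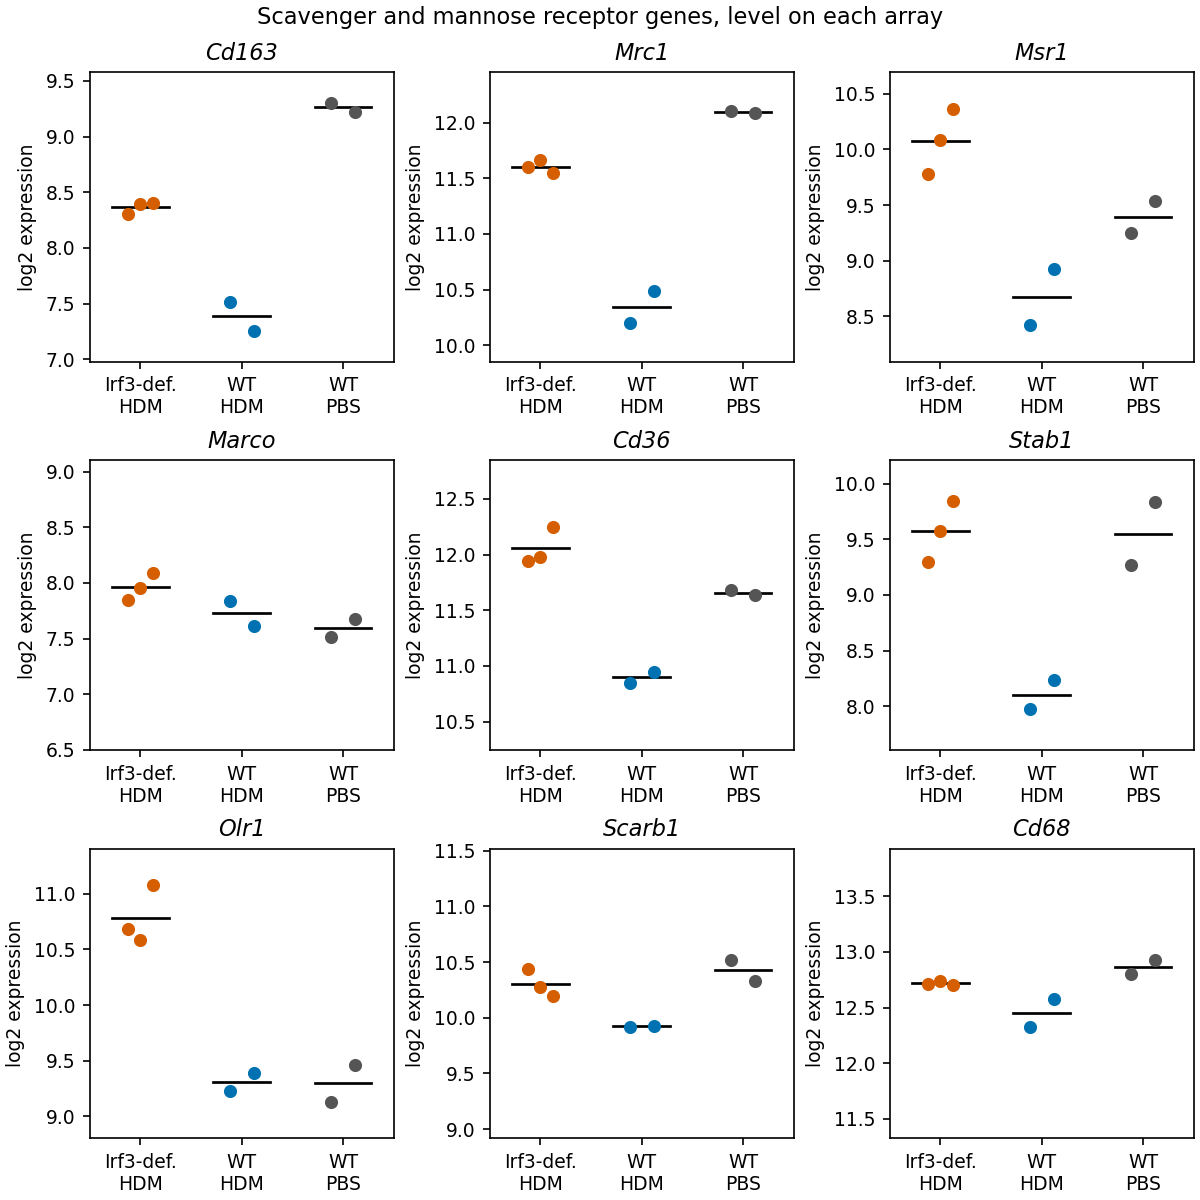
Log2 expression of the 9 receptor genes on each array, with 1 panel per gene and axes of equal span. Points are arrays (3 HDM-treated Irf3-deficient, 2 HDM-treated wild type, 2 PBS-treated wild type) and bars are group means. The HDM-treated wild type arrays are lowest for 7 of the genes, and for Olr1 the Irf3-deficient arrays stand above both wild type groups.

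The sequence around the annotated start is shown for the 2 receptors with the largest falls in wild type cDC2s, Cd163 and Mrc1, and for Olr1, which had the largest difference of the 9 against PBS-treated wild type. Each window, from RefSeq on GRCm38.p6, runs from 250 bases before to 50 bases after the start, and capitals mark matches to any of the searched motifs on either strand. The motifs were GAAA repeated after any 2 bases (the interferon-stimulated response element), TTCNNNGAA (the site of STAT dimers), GAGGAA (core of the PU.1 site) and TGANTCA (AP-1), none of which overlapped another in these windows. They were chosen with the expression values known.
Cd163, chr6:124304401-124304700, plus strand: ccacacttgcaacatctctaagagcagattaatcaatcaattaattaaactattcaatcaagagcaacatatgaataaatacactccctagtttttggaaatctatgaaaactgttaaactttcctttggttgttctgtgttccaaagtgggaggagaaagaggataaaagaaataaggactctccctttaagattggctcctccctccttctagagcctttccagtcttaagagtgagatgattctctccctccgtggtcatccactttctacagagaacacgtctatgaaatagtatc
Mrc1, chr2:14229164-14229463, plus strand: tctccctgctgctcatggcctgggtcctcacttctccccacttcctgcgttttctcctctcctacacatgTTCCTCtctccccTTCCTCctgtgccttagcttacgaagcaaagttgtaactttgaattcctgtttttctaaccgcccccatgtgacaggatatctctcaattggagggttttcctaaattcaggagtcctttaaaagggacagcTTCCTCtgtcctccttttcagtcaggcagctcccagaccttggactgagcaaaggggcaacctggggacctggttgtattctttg
Olr1, chr6:129507116-129507415, minus strand: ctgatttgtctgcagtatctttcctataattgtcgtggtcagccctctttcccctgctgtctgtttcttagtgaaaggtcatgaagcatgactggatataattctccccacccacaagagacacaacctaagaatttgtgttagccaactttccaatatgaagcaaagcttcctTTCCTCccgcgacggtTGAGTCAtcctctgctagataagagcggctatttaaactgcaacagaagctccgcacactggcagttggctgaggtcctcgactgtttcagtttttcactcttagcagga
Windows were found for 7 of the 9 genes, all but Msr1 and Scarb1. GAGGAA was present in 5 of the 7 (Mrc1, Marco, Stab1, Olr1 and Cd68), against 28.3% of 32851 mouse windows, and TGANTCA in Olr1 and Cd68, against 7.81%. Mrc1 held 3 matches to GAGGAA, at -180, -167 and -35 from the start, and Olr1 1 match to GAGGAA at -76 and 1 to TGANTCA at -60. The interferon-stimulated response element and the STAT site, with matches in 3.44% and 8.30% of all windows, had no match in the 7. A match is a run of letters and shows no binding, and the start in use in these cells was not measured.

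Mrc1 encodes CD206, a C-type lectin that binds mannose and fucose on microbes and, in human dendritic cells, glycosylated mite allergens. Its log2 level was 11.60, 11.67 and 11.55 in HDM-treated Irf3-deficient arrays, 10.20 and 10.49 in HDM-treated wild type and 12.11 and 12.09 in PBS-treated wild type. The groups did not overlap, and the Irf3-deficient arrays lay between the wild type groups. The differences were -1.75 ± 0.11 for wild type HDM minus PBS (SE, adjusted p = 3.86e-07), 1.26 ± 0.10 between the treated genotypes (adjusted p = 3.64e-06) and -0.49 ± 0.10 for Irf3-deficient HDM minus wild type PBS (adjusted p = 0.00975). The last of these was at adjusted p = 0.0955 without PBS replicate 1 and 0.0573 without PBS replicate 2.

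Cd163 encodes a receptor of the scavenger receptor cysteine-rich family, found mainly on macrophages, that takes up haemoglobin-haptoglobin complexes, and its start region held none of the searched motifs. It had 8.31, 8.40 and 8.40 in Irf3-deficient HDM arrays, 7.52 and 7.25 in wild type HDM arrays and 9.30 and 9.22 in wild type PBS arrays. As for Mrc1, the Irf3-deficient arrays lay between both wild type groups without overlap. The wild type response was -1.88 ± 0.12 (SE, adjusted p = 3.54e-07), the difference between treated genotypes 0.98 ± 0.11 (adjusted p = 5.35e-05), and the remaining difference from PBS-treated wild type -0.90 ± 0.11 (adjusted p = 0.000349). Every one of these 3 calls held in all 16 alternatives.

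Class A receptors gave 2 different patterns. Msr1 encodes the macrophage scavenger receptor for modified low density lipoprotein and bacterial surfaces, and Marco its relative on alveolar macrophages that binds particles and bacteria. Msr1 stood at 9.78, 10.08 and 10.36 in Irf3-deficient HDM arrays, 8.42 and 8.93 in wild type HDM arrays and 9.25 and 9.54 in wild type PBS arrays. The Irf3-deficient arrays were thus the highest and the HDM-treated wild type arrays the lowest. The differences were 1.4 ± 0.18 between treated genotypes (SE, adjusted p = 0.00015), -0.72 ± 0.20 for the wild type response (adjusted p = 0.0243) and 0.68 ± 0.18 against PBS-treated wild type (adjusted p = 0.0302). The wild type response of Msr1 no longer passed without wild type HDM replicate 1 (-0.46, adjusted p = 0.179) or PBS replicate 2 (-0.57, adjusted p = 0.166), and its difference from PBS-treated wild type no longer passed in 6 of 16 alternatives. Marco had 7.85, 7.95 and 8.09 in Irf3-deficient HDM arrays, 7.84 and 7.61 in wild type HDM arrays and 7.51 and 7.68 in wild type PBS arrays. The wild type groups overlapped and the Irf3-deficient arrays lay just above both, but no difference passed: 0.13 for the wild type response (95% CI -0.15 to 0.40, adjusted p = 0.585), 0.24 between treated genotypes (-0.02 to 0.49, adjusted p = 0.205) and 0.37 against PBS-treated wild type (0.11 to 0.62, adjusted p = 0.066).

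Class B receptors bind lipids. Cd36 encodes a receptor for oxidised lipoproteins, long-chain fatty acids and apoptotic cells, and Scarb1 encodes SR-BI, which takes up cholesteryl ester from high density lipoprotein. Cd36 stood at 11.94, 11.98 and 12.25 in Irf3-deficient HDM arrays, 10.84 and 10.95 in wild type HDM arrays and 11.68 and 11.63 in wild type PBS arrays. No groups overlapped, with the Irf3-deficient arrays highest. Cd36 differed by -0.76 ± 0.12 in the wild type response (SE, adjusted p = 0.000566), by 1.16 ± 0.11 between treated genotypes (adjusted p = 9.53e-06) and by 0.40 ± 0.11 against PBS-treated wild type (adjusted p = 0.0322). The last of these no longer passed in 6 of 16 alternatives, among them the fits without PBS replicate 1 (adjusted p = 0.152) and without PBS replicate 2 (adjusted p = 0.147). Scarb1 had 10.44, 10.27 and 10.20 in Irf3-deficient HDM arrays, 9.92 and 9.92 in wild type HDM arrays and 10.52 and 10.33 in wild type PBS arrays. Its Irf3-deficient and PBS-treated arrays overlapped (difference -0.12, 95% CI -0.36 to 0.12, adjusted p = 0.582), and both lay above the HDM-treated wild type arrays. The Scarb1 calls lay near the threshold, at -0.50 (adjusted p = 0.0116) for the wild type response and 0.38 (adjusted p = 0.0285) between treated genotypes. The first was at adjusted p = 0.104 without PBS replicate 1. The second was at adjusted p = 0.1 without wild type HDM replicate 1, 0.112 without wild type HDM replicate 2, 0.0782 without Irf3-deficient replicate 1 and 0.0696 without Irf3-deficient replicate 2.

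Stab1 encodes stabilin-1, a class H receptor of sinusoidal endothelium and some tissue macrophages that takes up acetylated lipoprotein and the matrix protein SPARC. It stood at 9.29, 9.57 and 9.84 in Irf3-deficient HDM arrays, 7.98 and 8.23 in wild type HDM arrays and 9.27 and 9.83 in wild type PBS arrays. The Irf3-deficient and PBS-treated arrays covered nearly the same range, and the HDM-treated wild type arrays lay below both. The wild type response was -1.44 ± 0.20 (SE, adjusted p = 0.000227), the difference between treated genotypes 1.46 ± 0.18 (adjusted p = 0.000105), and that against PBS-treated wild type 0.02 (95% CI -0.37 to 0.41, adjusted p = 0.969). That interval leaves room for a change of up to 1.33-fold.

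Olr1 encodes LOX-1, the class E receptor for oxidised low density lipoprotein, and its start region above holds a PU.1 core and an AP-1 match. It had 10.69, 10.58 and 11.08 in Irf3-deficient HDM arrays, 9.23 and 9.39 in wild type HDM arrays and 9.13 and 9.46 in wild type PBS arrays. The wild type groups overlapped, and every Irf3-deficient array stood above both. Olr1 was higher by 1.47 ± 0.15 against HDM-treated wild type (SE, adjusted p = 2.71e-05) and by 1.49 ± 0.15 against PBS-treated wild type (adjusted p = 9.89e-05), where the fold was 2.80 (95% CI 2.22 to 3.52). In the wild type response the difference was 0.01 (95% CI -0.35 to 0.38, adjusted p = 0.975), which leaves room for a rise of up to 1.3-fold.

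Cd68 encodes macrosialin, a class D receptor of the lysosome-associated membrane protein (LAMP) family that sits mostly in late endosomes and lysosomes. It stood at 12.71, 12.74 and 12.71 in Irf3-deficient HDM arrays, 12.33 and 12.58 in wild type HDM arrays and 12.80 and 12.93 in wild type PBS arrays. The groups did not overlap, with the HDM-treated wild type arrays lowest and the PBS-treated ones highest. Cd68 fell by 0.41 ± 0.10 in the wild type response (SE, adjusted p = 0.0121), which did not pass without wild type HDM replicate 1 (adjusted p = 0.1) or PBS replicate 2 (adjusted p = 0.102). Between treated genotypes Cd68 differed by 0.26 (95% CI 0.07 to 0.46, adjusted p = 0.0611), and this passed without wild type HDM replicate 2, at 0.39 (adjusted p = 0.0212). Against PBS-treated wild type Cd68 did not pass (-0.14 ± 0.09, adjusted p = 0.392).

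**Figure D2:**
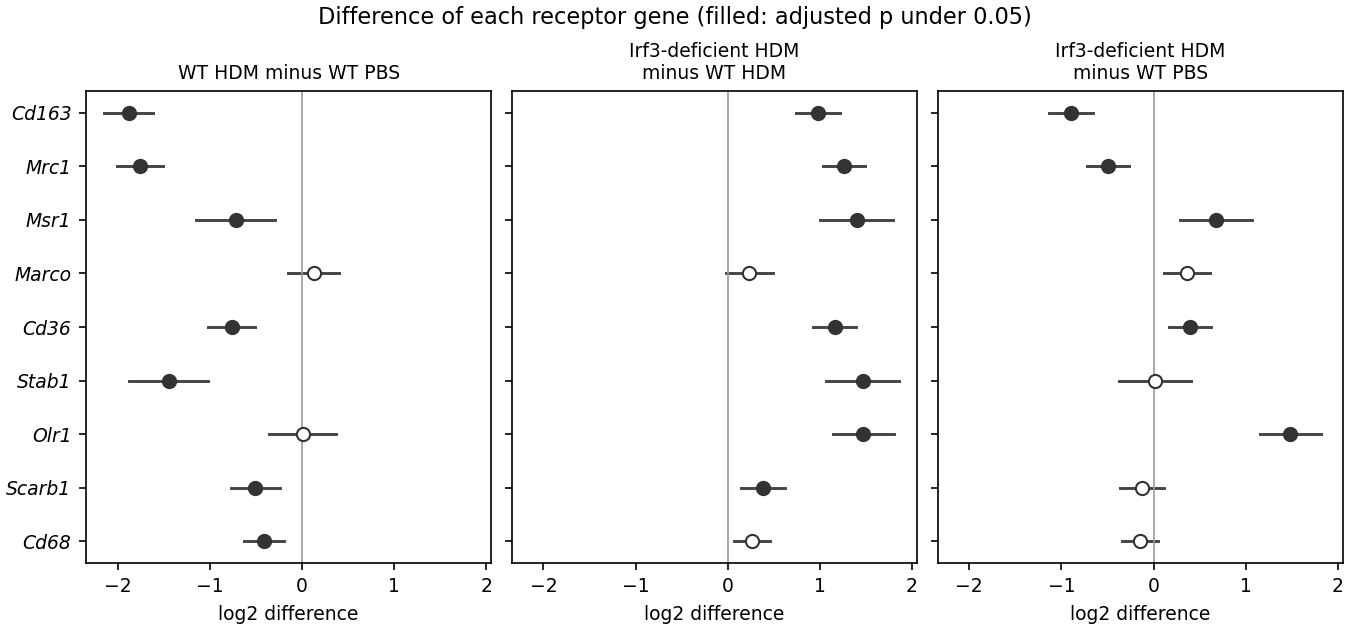
Log2 difference of each receptor gene in the 3 comparisons, with its 95% confidence interval from limma on the horizontal axis and genes down the page. Filled circles passed at an adjusted p under 0.05. In the left panel 7 filled circles lie below 0, and in the middle panel all 9 genes lie above 0, 7 of them filled. In the right panel the filled circles are Olr1, Msr1 and Cd36 above 0 and Cd163 and Mrc1 below it.

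The genes whose profile over the 7 arrays lay closest to a receptor differed between receptors. Closeness was the root mean square difference between log2 values centred on each gene's mean. For a gene that varied much, a small value means that both pattern and size were alike. For a gene that varied little, any other gene that varied little also gives a small value. Closest to Olr1 was Clec4e, the gene of the lectin Mincle, at 0.11. It averaged 11.38 in Irf3-deficient HDM arrays, 9.68 in wild type HDM arrays and 9.74 in wild type PBS arrays. Msr1 was closest to Il1a, the gene of interleukin 1 alpha, at 0.09, followed by Pxdc1 at 0.15 and the chemokine gene Ccl7 at 0.17. Cd36 had 3 genes at 0.10, namely the myeloid lectin gene Clec5a, Rab31 and Psd3. For Mrc1 the nearest were P3h2 at 0.13, the fractalkine receptor gene Cx3cr1 at 0.13 and Siglece at 0.18, and for Cd163 they were Agmo at 0.14, the macrophage gene Adgre1 at 0.17 and Hepacam2 at 0.17. Stab1 was nearest to Tnfsf13b, the gene of the B cell factor BAFF, at 0.15, Lmna at 0.15 and Abcc3 at 0.17. Scarb1 and Cd68 varied little over the arrays, and their nearest genes were Apba1 and Pde9a, both at 0.04. Among the receptors themselves, the closest pairs were Scarb1 with Cd68 at 0.13, Msr1 with Cd36 at 0.21 and Cd163 with Mrc1 at 0.23, and the most distant pair was Cd163 with Olr1 at 1.03.

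Receptor RNA varied between arrays of 1 group by a median SD of 0.12 in Irf3-deficient HDM, 0.18 in wild type HDM and 0.12 in wild type PBS arrays, against 0.10 in Irf3-deficient HDM, 0.08 in wild type HDM and 0.10 in wild type PBS arrays for all genes. Irf3-deficient replicate 3 held the highest value of its group for 6 of the 9 genes, and wild type HDM replicate 2 for 7 of 9. The largest SDs were those of Msr1 in both HDM-treated groups (0.29 in Irf3-deficient and 0.36 in wild type) and of Stab1 in PBS-treated wild type (0.40).

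Other uptake genes were listed for comparison. These lists share some genes with each other and with the marker lists below, so their counts are not independent. Shares over all genes, for both kinds of list, were 9.23% lower and 8.35% higher after HDM in wild type. Between the treated genotypes the shares were 10.7% higher and 9% lower. Of 16 further scavenger and related receptors, 3 were lower and 1 higher in wild type cDC2s after HDM, and 1 was higher between the treated genotypes. That gene was Cd14, the lipopolysaccharide co-receptor, at -1.38 (adjusted p = 0.000332) and 1.26 (adjusted p = 0.000335), while Ager fell by 0.54 (adjusted p = 0.00468) and Ssc5d rose by 0.35 (adjusted p = 0.046). Of 16 endocytic lectins and other genes of the mannose receptor family, 8 fell and 2 rose after HDM in wild type, and 8 were higher and 2 lower between the treated genotypes. Ly75, which encodes the mannose receptor relative DEC-205, went the other way from Mrc1, with a wild type response of 1.80 ± 0.14 (SE, adjusted p = 1.76e-06) and a difference of -0.60 ± 0.13 between treated genotypes (adjusted p = 0.00477). The lectin genes Cd209d and Clec4a2 had wild type responses of -1.47 and -1.25.

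Of 22 receptors and bridging molecules for apoptotic cells, 11 fell and 2 rose in the wild type response, with median -0.33. Between the treated genotypes 14 were higher and 0 lower by limma (16 and 0 at an unadjusted p under 0.05), with median 0.55. Of the higher genes, C1qa, C1qb, C1qc and Mertk are also monocyte and interstitial macrophage markers, and Lrp1 is also in the lipid list. The integrin gene Itgb5 had a wild type response of -1.92 (adjusted p = 7.09e-06) and Lrp1, an endocytic receptor of apoptotic cells and lipoproteins, -1.03 (adjusted p = 6.17e-06), and Lrp1 was higher by 0.82 between treated genotypes (adjusted p = 2.43e-05). Havcr1, the gene of the phosphatidylserine receptor TIM-1, rose by 1.15 in wild type cells (adjusted p = 0.000166). Of 19 lipid handling genes, many of which act after uptake by class B receptors, 11 fell and 3 rose after HDM, and 9 were higher and 4 lower between treated genotypes. Apoe, the gene of a lipoprotein ligand, had differences of -2.03 in the wild type response and -1.0 between treated genotypes (adjusted p = 0.00164), the second opposite in sign to that of Cd36. Nceh1, a cholesteryl ester hydrolase gene, was higher by 1.10 between treated genotypes (adjusted p = 5.72e-05).

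Of 24 genes of clathrin coats, endosomes and macropinocytosis, 5 were lower and 2 higher after HDM in wild type, and 6 were higher and 2 lower between treated genotypes, with medians of 0.02 and 0.15. Among them Dab2, a clathrin adaptor gene for lipoprotein receptors, fell by 1.00 ± 0.09 in wild type cells (SE, adjusted p = 7.45e-06) and was higher by 1.00 ± 0.08 between treated genotypes (adjusted p = 3.46e-06). Of 15 haem and iron genes, from plasma haem carriers to haem breakdown and iron transport, 2 were lower (Slc48a1 and Slc40a1) and 1 higher (Spic, a macrophage transcription factor gene) after HDM, and 4 were higher and 3 lower between treated genotypes. Slc40a1, the iron exporter gene, averaged 6.16 in wild type HDM and 6.55 in wild type PBS arrays, levels that cannot be told from background. The haem transporter gene Slc48a1 differed by -0.95 (adjusted p = 0.000781) and 0.94 (adjusted p = 0.0004), and Hmox1, the haem oxygenase gene, by 0.16 (adjusted p = 0.764) and 0.28 (adjusted p = 0.523). Of 10 genes of the LAMP family and other lysosomal membrane glycoproteins, 1 was lower and 2 higher after HDM, and 3 were lower between treated genotypes, where the tetraspanin gene Cd63 differed by -0.91 (adjusted p = 0.00708) and Lamp1, a LAMP relative of Cd68, by -0.30 (adjusted p = 0.0212). Of 13 transcription factors known to act on these receptor genes, 2 were lower and 1 higher after HDM, and 4 were higher between treated genotypes. Nfe2l2, which encodes NRF2, and Pparg, an activator of Cd36, were higher by 0.58 (adjusted p = 0.00133) and by 0.79 (adjusted p = 0.00135). In the wild type response neither passed, at -0.31 (adjusted p = 0.082) for Nfe2l2 and -0.27 (adjusted p = 0.291) for Pparg. Their part in the receptor results was not tested. Of 6 genes of receptor shedding and signalling, 1 was lower (Adam10, -0.42) and 1 higher (Rhbdf2, 0.58) after HDM, and 3 were higher between treated genotypes, among them Adam17, whose protease sheds CD163, by 0.31 (adjusted p = 0.0244).

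Between HDM-treated Irf3-deficient and PBS-treated wild type cells, 4 of the 16 lectin genes were higher and 1 lower, 4 of the 22 apoptotic cell genes were higher and 3 lower, and 2 of the 19 lipid genes were higher and 1 lower. Havcr1 was higher by 1.86 (adjusted p = 8.08e-06) and Ly75 by 1.20 (adjusted p = 0.000123), while Apoe differed by -3.03 (adjusted p = 1.41e-06). Fabp4, a fatty acid carrier of alveolar macrophages, was higher by 1.43 (adjusted p = 0.000773). Of the further scavenger receptors 1 was higher and 2 lower, of the haem and iron genes 3 and 2, and of the endocytosis genes 2 and 1. Among the lower haem and iron genes, Slc40a1 averaged 6.13 and 6.55 in these groups, levels that cannot be told from background. Of the lysosomal membrane genes 2 were lower, Lamp3 and Tmem106b, and 3 transcription factors and 2 shedding genes were higher. Over all genes 10.8% passed in this comparison, 5.89% higher and 4.91% lower.

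**Figure D3:**
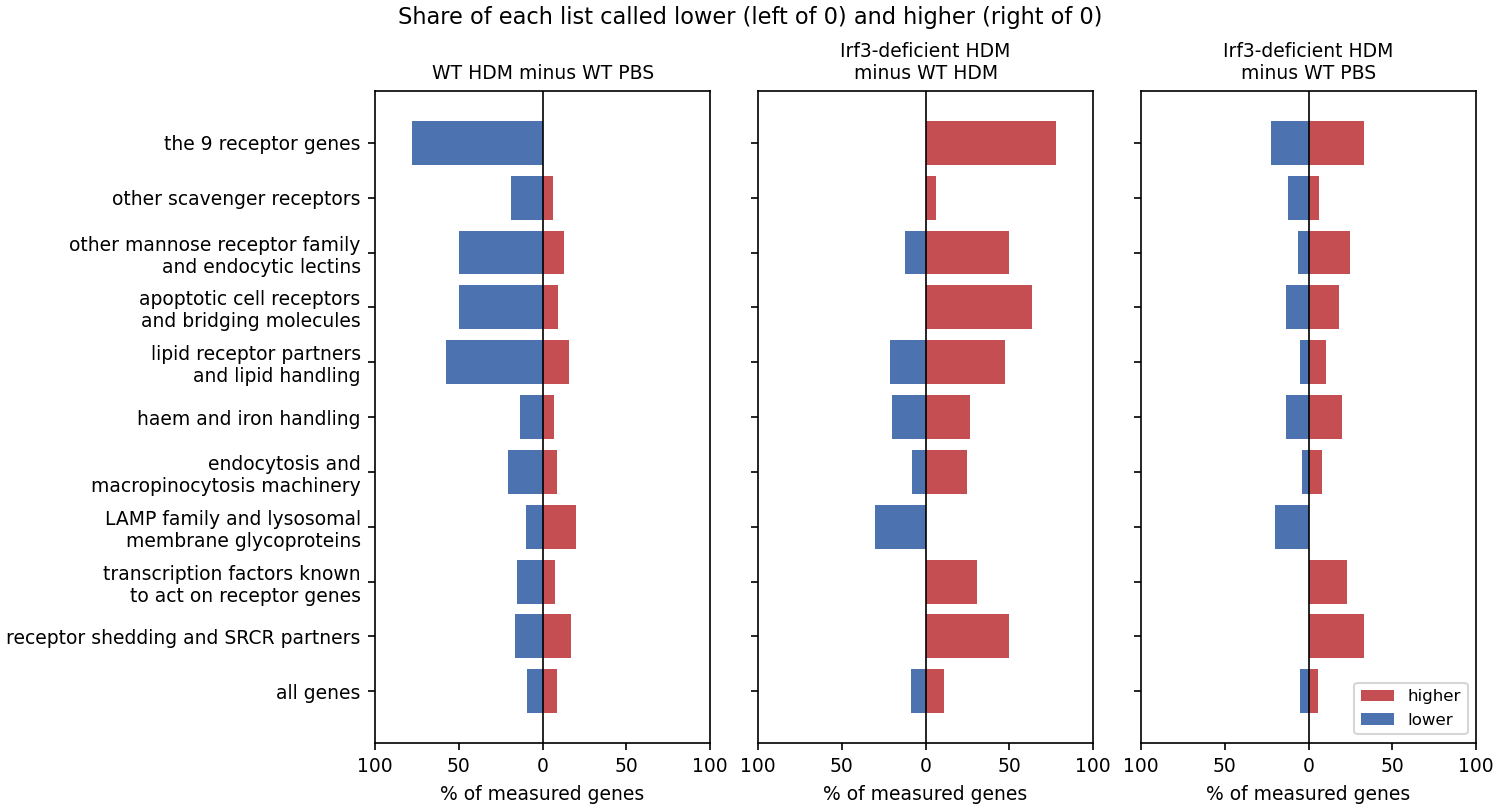
Percentage of the measured genes of each list that were lower (bars to the left) or higher (bars to the right) at an adjusted p under 0.05 in the 3 comparisons. The 9 receptor genes have 77.8% lower in the left panel and 77.8% higher in the middle panel, and all 19938 genes, in the lowest row, have 9.23% lower and 10.7% higher in the same panels.

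Several of these receptors are also macrophage genes, and markers of macrophages moved in the same arrays. Of 17 measured monocyte and interstitial macrophage markers (of 20 listed), 14 were lower and 2 higher after HDM in wild type cDC2s, with median -1.28, and 11 were higher and 3 lower between the treated genotypes, with median 0.95. Their summed linear signal was 43338 to 46691 in Irf3-deficient HDM, 23936 to 32729 in wild type HDM and 53683 to 66386 in wild type PBS arrays. Cd163, Mrc1 and Cd68 shared this order without overlap, Scarb1 shared it in its means, and Olr1, Msr1, Cd36, Stab1 and Marco did not. The differences of Cd68 (-0.145), Scarb1 (-0.12) and Stab1 (0.02) from PBS-treated wild type did not pass, so their place in this order is not settled. Adgre1 differed by -2.05 and 1.17 in the wild type and genotype comparisons, whereas Fcgr1 and Plac8 differed by 1.79 and 2.82 in the first and by -1.67 and -2.69 in the second. Against PBS-treated wild type, 3 of the 17 were lower in the Irf3-deficient cells. The part of these cells in the receptor results was not tested.

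Alveolar macrophage markers had no shared direction, with 3 of 12 higher and 3 lower in the wild type response and 2 higher and 1 lower between treated genotypes. Of the calls in the wild type response, that of Fabp1 lay below the lower quartile of all genes in every group. Their summed signal was 12052 to 13840 in Irf3-deficient HDM arrays, 11423 to 11428 in wild type HDM arrays and 10138 to 10523 in wild type PBS arrays. Siglecf and Fabp4, defining markers of these cells, averaged 9.0 and 9.82 in Irf3-deficient HDM, 8.81 and 9.64 in wild type HDM and 9.24 and 8.38 in wild type PBS arrays. Of 12 endothelial markers, relevant to Stab1, Cd36 and Scarb1, 10 fell after HDM in wild type (median -0.65) and 1 was higher between treated genotypes (median 0.17), with 7 lower against PBS-treated wild type. Their summed signal was 5394 to 6440 in Irf3-deficient HDM, 4559 to 5664 in wild type HDM and 7486 to 9017 in wild type PBS arrays. Platelet markers, relevant to Cd36, had 1 of 6 lower after HDM (Pf4, also in the monocyte and interstitial macrophage list) and 2 higher between treated genotypes. Their summed signals were 3613 to 5443 in Irf3-deficient HDM, 2454 to 2745 in wild type HDM and 3384 to 4012 in wild type PBS arrays. Neutrophil markers had 1 of 10 higher after HDM, Ly6g, at 5.97 in wild type HDM and 5.61 in wild type PBS arrays, levels that cannot be told from background. Between treated genotypes 2 were higher, Cxcr2 and Mmp9, with summed signals of 1703 to 2143 in Irf3-deficient HDM, 1497 to 1503 in wild type HDM and 1414 to 1720 in wild type PBS arrays. Markers of cDC1s, the other conventional subset, had 2 of 9 higher and 3 lower in each of these 2 comparisons, with summed signals of 19485 to 21221 in Irf3-deficient HDM, 18945 to 21271 in wild type HDM and 19372 to 20236 in wild type PBS arrays. The cDC2 list itself had 6 of 14 lower and 2 higher after HDM and 5 higher and 2 lower between treated genotypes, with summed signals of 79354 to 84465 in Irf3-deficient HDM, 67465 to 69264 in wild type HDM and 82816 to 83573 in wild type PBS arrays.

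**Figure D4:**
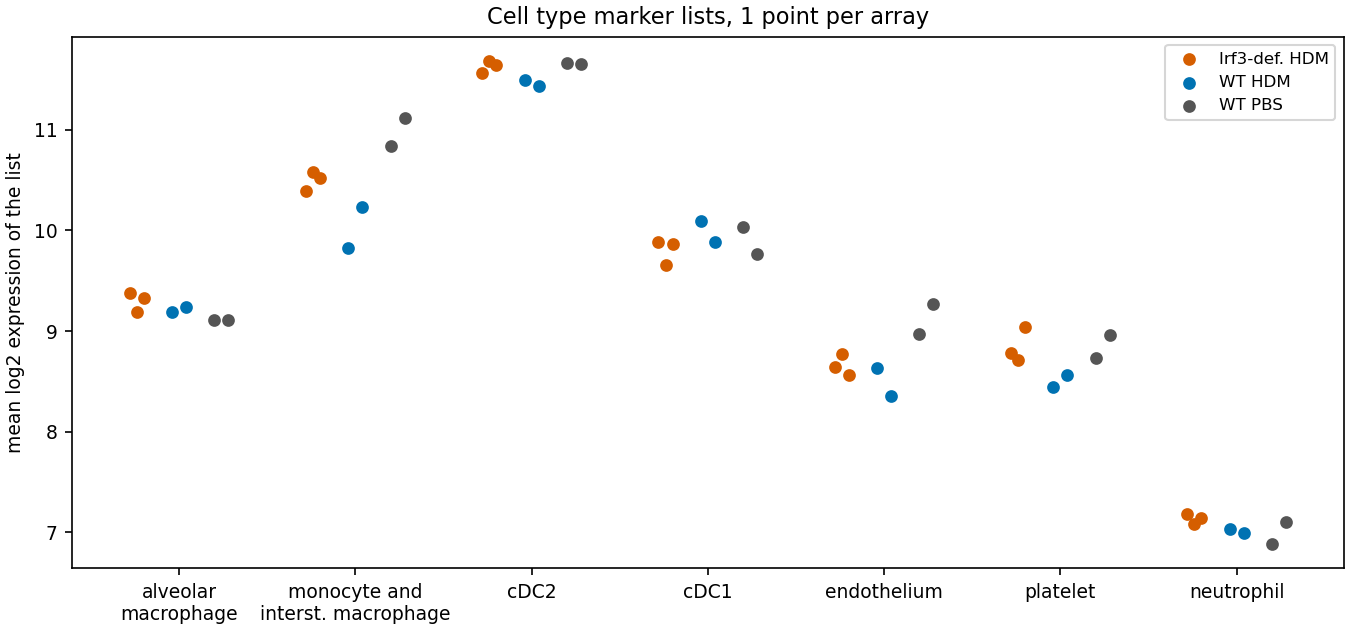
Mean log2 expression of 7 lists of cell type markers, 1 point per array, with HDM-treated Irf3-deficient, HDM-treated wild type and PBS-treated wild type arrays side by side in each list. For monocyte and interstitial macrophage markers the Irf3-deficient arrays lie at 10.39 to 10.58, between the HDM-treated wild type arrays at 9.82 and 10.23 and the PBS-treated wild type arrays at 10.84 and 11.12.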

How the data were processed

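RNA from 7 pools of sorted lung cDC2s, each from 10 mice, was measured on 1 array per pool, per the labels. The authors deposited log2 expression values for 35556 probesets; per the submitters' processing notes, R 3.2.1, oligo and RMA were involved, in roles not given. Array medians were nearly equal, so a shift of most RNAs together would not show. The number of arrays, 2 or 3 per group, limits the precision.

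Probesets were named through the platform annotation, which gave 21789 of them 1 symbol, 1621 several and left 12146 unnamed. Symbols were updated through Entrez identifiers in RefSeq (GRCm38.p6), matching 19856 of 19938 genes. The brightest single-symbol probeset by mean over the 7 arrays stood for a gene, with no filter on brightness. The model, fitted to the 7 arrays together with limma 3.58.1 (R 4.3.3), held a mean for each group, and eBayes used an intensity trend (4 residual and 8.34 prior degrees of freedom). Tests were two-sided, adjusted by Benjamini-Hochberg over all genes at a threshold of 0.05, and "rose", "fell", "higher" and "lower" of a gene in a comparison mean that it passed. A p for single genes from permuted samples was not used, as groups this small cannot reach the threshold. The fit was run on simulated data with normal noise of the spread it had itself estimated, so that run could not test these assumptions. The share of false calls there lay above 0.05 in each comparison. Since each array is a pool, p-values measure the spread between pools and not between mice.

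The members, gene lists and alternatives were chosen with earlier results of these data known. Named genes are the 9 receptors, Irf3, up to 2 genes per list, comparison and direction with the smallest p, the 3 nearest genes by profile, and marker genes; Hmox1 and the genes of the closing section were named after their values were seen. Alternatives were the probeset rule, variance prior, scaling, a brightness filter, the arrays fitted, array weights, a replicate block, and leaving out each array.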

Additional observations from a re-analysis of the deposited data

How the results depend on the processing

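In the 27 gene by comparison results under up to 16 alternatives, 398 of 429 values kept their call, 25 no longer passed, 6 passed newly and 0 reversed; Marco was left out by the filter at the median level. The cause of these changes was not tested, except that a fit without an array has fewer samples, and where 1 array was left in a group it was assumed to vary like the others. Calls that held in every alternative were Cd163, Mrc1, Cd36 and Stab1 in the wild type response, Cd163, Mrc1, Msr1, Cd36, Stab1 and Olr1 between treated genotypes, and Cd163 and Olr1 for Irf3-deficient HDM against wild type PBS. With quantile normalization repeated, the wild type response of Msr1 was -0.67 (adjusted p = 0.068) and, against PBS, Msr1 was at 0.69 (0.0621), Cd36 at 0.32 (0.105) and Marco at 0.35 (0.0459). With array medians subtracted, Scarb1 between genotypes was 0.36 (0.0617) and, against PBS, Msr1 was 0.67 (0.0507) and Marco 0.36 (0.0475). Cd68 between genotypes passed with quantile normalization (0.29), the median filter (0.26) and array weights (0.27). Leaving out 1 array at a time gave 2333 to 3724 genes called in the wild type response, 2562 to 3906 between genotypes (both lowest without wild type HDM replicate 2) and 749 to 2359 against PBS (lowest without PBS replicate 1, and 1377 without Irf3-deficient replicate 2), against 3505, 3932 and 2153 with all arrays. Against PBS it gave 2 to 5 receptors called, 1 to 3 higher and 1 to 2 lower. The ranges of log2 differences were -0.97 to -0.46 for Msr1, -0.60 to -0.41 for Scarb1 and -0.53 to -0.28 for Cd68 in the wild type response, 0.31 to 0.43 for Scarb1 and 0.14 to 0.39 for Cd68 between genotypes, and -0.52 to -0.46 for Mrc1, 0.54 to 0.83 for Msr1 and 0.30 to 0.45 for Cd36 against PBS. Replicate numbers name the arrays and are not known to pair them. Same-numbered arrays had deviation correlations from -0.233 to 0.178, and differently numbered arrays from -0.277 to 0.277. In a group of 2 arrays the deviations mirror each other, so these values are not independent. With the replicate block, 3118, 3249 and 1426 genes were called in the 3 comparisons, and 7, 7 and 4 receptors, with Cd36 against PBS at 0.30 (adjusted p = 0.183). Replicate number 3 exists only among Irf3-deficient arrays, so the block fitted that array exactly. Its log2 differences are thus those found without that array, and the 2 alternatives are not separate checks of size. Without detection calls or probe backgrounds, how far signal stood above background is not known. Cd163 read below the median of all genes, 7.92, in HDM-treated wild type arrays. Marco read below it on every wild type array and on Irf3-deficient replicate 1, at 7.85.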

Other observations

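Genes lying beside the receptors in the RefSeq order of GRCm38.p6, the 3 nearest measured on each side, included few that moved as their receptor did. Nt5dc2, next to Stab1, stood at 10.48, 9.84 and 9.97 in Irf3-deficient HDM arrays, 8.71 and 8.97 in wild type HDM arrays and 10.08 and 10.09 in wild type PBS arrays. Its differences by limma were -1.24 (adjusted p = 0.000394) in the wild type response, 1.25 (adjusted p = 0.000185) between treated genotypes and 0.01 (adjusted p = 0.982) for Irf3-deficient HDM against wild type PBS. Nisch, on the other side of Stab1, differed by -0.24, -0.04 and -0.29 without passing. Hgf, the hepatocyte growth factor gene near Cd36, had -0.95 (adjusted p = 0.000166), 0.67 (adjusted p = 0.0011) and -0.28 (adjusted p = 0.161), and Sema3c, between them, -1.23 (adjusted p = 0.0012), 0.15 (adjusted p = 0.711) and -1.08 (adjusted p = 0.00326). Steap3, a metalloreductase gene near Marco, had -0.77 (adjusted p = 0.00133) and 0.58 (adjusted p = 0.00417) where Marco passed in no comparison, and Bri3bp near Scarb1 had -0.46 (adjusted p = 0.0143) and 0.52 (adjusted p = 0.00378). Aacs, also near Scarb1, went the other way, with 0.50 (adjusted p = 0.00725) and -0.68 (adjusted p = 0.000444).

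Olr1 lies among lectin genes of the dectin-1 group. Clec7a, the gene of dectin-1, had differences of -0.02 in the wild type response, 0.38 between treated genotypes (adjusted p = 0.0151) and 0.36 against PBS-treated wild type (adjusted p = 0.033). Clec9a had 0.62, -0.58 and 0.03. Gabarapl1, on the other side of Olr1, had -0.17, 0.56 (adjusted p = 0.0022) and 0.39 (adjusted p = 0.0317). These genes were singled out after their values were seen.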
